A study of Mus musculus with 4 samples.

Results

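The 8 genes described here encode chains of the fibrillar collagens of types I, III, V and XI. They are Col1a1 (ENSMUSG00000001506) and Col1a2 (ENSMUSG00000029661) for type I, Col3a1 (ENSMUSG00000026043) for type III, Col5a1 (ENSMUSG00000026837), Col5a2 (ENSMUSG00000026042) and Col5a3 (ENSMUSG00000004098) for type V, and Col11a1 (ENSMUSG00000027966) and Col11a2 (ENSMUSG00000024330) for type XI. They were chosen by gene symbol, and each symbol matched 1 of the 33696 genes listed in each library. Their levels and the ratios between their chains were followed across cell classes in mouse Achilles tendon, read by single-cell RNA sequencing in droplets. The tendon was digested with collagenase and DNase before the cells were barcoded.

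There were 4 libraries, 1 for each group. The neonate control came from uninjured tendon at postnatal day 3 and the neonate injury library from injured tendon of the same labelled age. The adult control and adult injury libraries came from mice aged 6 to 8 weeks, without and with tendon injury. The 2 libraries with injury are called the injured neonate and the injured adult, and values for 4 libraries without names follow the order neonate control, injured neonate, adult control, injured adult. The labels do not give the strain, the sex, the number of mice pooled in a library, the kind of injury or the time from injury to harvest, nor whether the age is that at injury or at harvest. Because each group is 1 library, no difference below has a replicate check and none was tested. The 95% intervals in square brackets come from exact Poisson or binomial limits of the counts of unique molecular identifiers (UMIs). Those for shifts in the ratios between chains come instead from a normal approximation on the log scale. All of these intervals cover counting error only.

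Fibrillar collagens are rope-like triple helices that cells secrete as procollagens, trim at both ends and assemble into the banded fibrils that carry load in tendon. Type I, made of Col1a1 and Col1a2 chains, is the bulk of a tendon fibril, and type III, made of Col3a1 chains, is typical of young and healing tissue and of thinner fibrils. Types V and XI are minor partners that sit largely inside the fibril, start its assembly and limit its width; type XI is best known from cartilage, where it joins type II.

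The promoters of the chains differ in base composition, and 1 of each collagen type is shown for that contrast. Of the 8 members, 6 matched an entry of the RefSeq promoter table, which uses build GRCm38.p6, and Col1a1 and Col5a2 did not. Each line gives the 250 bases before the annotated start, 5′ to 3′ on the gene's strand, which is the plus strand for all 4. They lie at chr6:4505368-4505617 for Col1a2, chr1:45311288-45311537 for Col3a1, chr2:27886175-27886424 for Col5a1 and chr3:114030290-114030539 for Col11a1. Capitals mark the CCAAT box, the TATA box (TATAAA) and the GC box (GGGCGG), searched on both strands, so that a match on the other strand appears as its reverse complement.
Col1a2: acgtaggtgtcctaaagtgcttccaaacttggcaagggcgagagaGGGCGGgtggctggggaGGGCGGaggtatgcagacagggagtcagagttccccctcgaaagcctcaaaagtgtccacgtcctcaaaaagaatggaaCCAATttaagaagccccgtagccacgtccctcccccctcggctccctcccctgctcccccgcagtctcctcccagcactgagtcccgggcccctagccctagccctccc
Col3a1: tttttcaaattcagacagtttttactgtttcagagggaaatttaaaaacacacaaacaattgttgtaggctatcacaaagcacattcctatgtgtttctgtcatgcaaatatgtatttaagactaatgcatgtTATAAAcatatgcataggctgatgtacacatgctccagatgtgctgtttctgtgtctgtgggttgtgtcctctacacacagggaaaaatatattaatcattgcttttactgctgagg
Col5a1: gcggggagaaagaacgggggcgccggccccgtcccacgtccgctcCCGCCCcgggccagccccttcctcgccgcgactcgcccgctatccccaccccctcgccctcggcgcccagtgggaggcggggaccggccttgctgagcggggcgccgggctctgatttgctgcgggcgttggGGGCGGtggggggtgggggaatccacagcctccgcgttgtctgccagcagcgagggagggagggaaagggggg
Col11a1: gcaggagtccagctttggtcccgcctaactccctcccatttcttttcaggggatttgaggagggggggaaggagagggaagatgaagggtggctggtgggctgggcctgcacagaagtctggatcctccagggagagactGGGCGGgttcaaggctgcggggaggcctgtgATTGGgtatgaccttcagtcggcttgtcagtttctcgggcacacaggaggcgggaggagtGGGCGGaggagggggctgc
The Col3a1 promoter had a GC content of 35.2%, against 62.0% for Col1a2, 62.4% for Col11a1 and 76.4% for Col5a1. Over the 32851 promoters of the same length the median was 52.4%, with 5.0% of them below Col3a1 and 97.0% below Col5a1. Col5a3 and Col11a2, which are not printed, stood at 62.8% and 57.6%. GGGCGG, the GC box, was found in 5 of the 6 promoters and not in that of Col3a1, and in 32.7% of all promoters. CCAAT was found in Col1a2, Col5a3 and Col11a1 and in 33.8% of all promoters. TATAAA, the letters of the TATA box, was found in Col3a1 and Col11a2 and in 12.4% of all promoters. These matches lay 117 to 112 bases before the start in Col3a1 and 143 to 138 bases before it in Col11a2. Use of either as a TATA box was not tested. CANNTG, the E-box, which is its own reverse complement and is not marked in capitals, was found in Col3a1, Col5a3 and Col11a2 and in 66.2% of all promoters. No match overlapped a match of another motif, and a match is a run of letters, not a measured binding site. In the RefSeq annotation of that build Col3a1 and Col5a2 are neighbouring protein-coding genes on chromosome 1, while no other pair of members is adjacent.

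The libraries held 68644322 to 128626912 UMIs, and 4440 to 12941 cells per library passed the filters. A cell was put in a class when at least 3 of the 8 marker genes of that class were detected and at least 2 more than of any other class, and no collagen gene was a marker. Fibroblast-lineage cells, marked by Pdgfra, Dcn, Lum, Serpinf1, Dpt, Mfap5, Fbln1 and Fmod, numbered 4860 in the neonate control, 7509 in the injured neonate, 3686 in the adult control and 1847 in the injured adult. Their median depth was 11081, 6367, 11468 and 20878 UMIs in that order, so the cells of the injured adult were the deepest. The gate sets a limit on a graded count: 768, 1052, 373 and 145 of these cells lay just inside it and 484, 477, 139 and 124 unassigned cells just outside. The sum of the 8 gate markers was 25764 CPM, that is UMIs of a gene per 1000000 UMIs of the class, in the adult control and 6384.5 to 6567 CPM in the other libraries. The tendon marker tenomodulin (Tnmd) had 2 or more UMIs in 25.8%, 28.0%, 41.2% and 15.1% of lineage cells in the same order, and cells without a Tnmd UMI made up 64.0%, 63.6%, 49.3% and 77.4%. This split depends on depth as well as on expression. Of the lineage, Y-linked UMIs without any Xist were seen in 87.4% of cells of the neonate control, 14.4% in the injured neonate, 0% in the adult control (0 of 3686 cells, which allows up to 0.0814%) and 0.0541% in the injured adult, and Xist without Y-linked UMIs in 0.0206%, 76.5%, 95.3% and 91.7%. Libraries shared 3 to 49 cell barcodes, at most 0.450% of a library.

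The type I and III chains and Col5a1 and Col5a2 were high in fibroblast-lineage cells. Col5a1 was also near its lineage level in Schwann-like cells of the adult control, and Col5a3 in mural-like cells. Col11a1 and Col11a2 were highest in chondrocyte-like cells. The 8 chains together took 4.14% of all UMIs of the lineage in the neonate control, 8.42% in the injured neonate, 3.28% in the adult control and 7.01% in the injured adult. Col1a1 was the most abundant of all genes there in every library but the adult control, where it ranked 3. In the neonate control, Col1a1 stood at 14922 CPM in lineage cells, 7517 in 70 myofibre-like cells, 5263 in chondrocyte-like cells, 2599.7 in Schwann-like cells and 1147 in mural-like cells, the contractile cells of vessel walls. Endothelial-like, macrophage-like and myogenic progenitor-like cells followed at 327 [312, 342], 309 [291, 327] and 299.99 [285, 315] CPM, and the order of these 3 was within counting error. The 4 osteoblast-like cells of that library, bone-forming cells rich in type I, held 77792 CPM, and the 1494 cells left unassigned by the gate held 8614 CPM. Such low levels in every class can be read against the immune cells, which are not known as a source of fibrillar collagen: pooled immune cells held 320.02 CPM of Col1a1 in the neonate control, 849.85 in the injured neonate, 151 in the adult control and 1070.5 in the injured adult. Lineage cells were 46.6, 47.7, 96.0 and 26.1 times above these values.

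**Figure D1:**
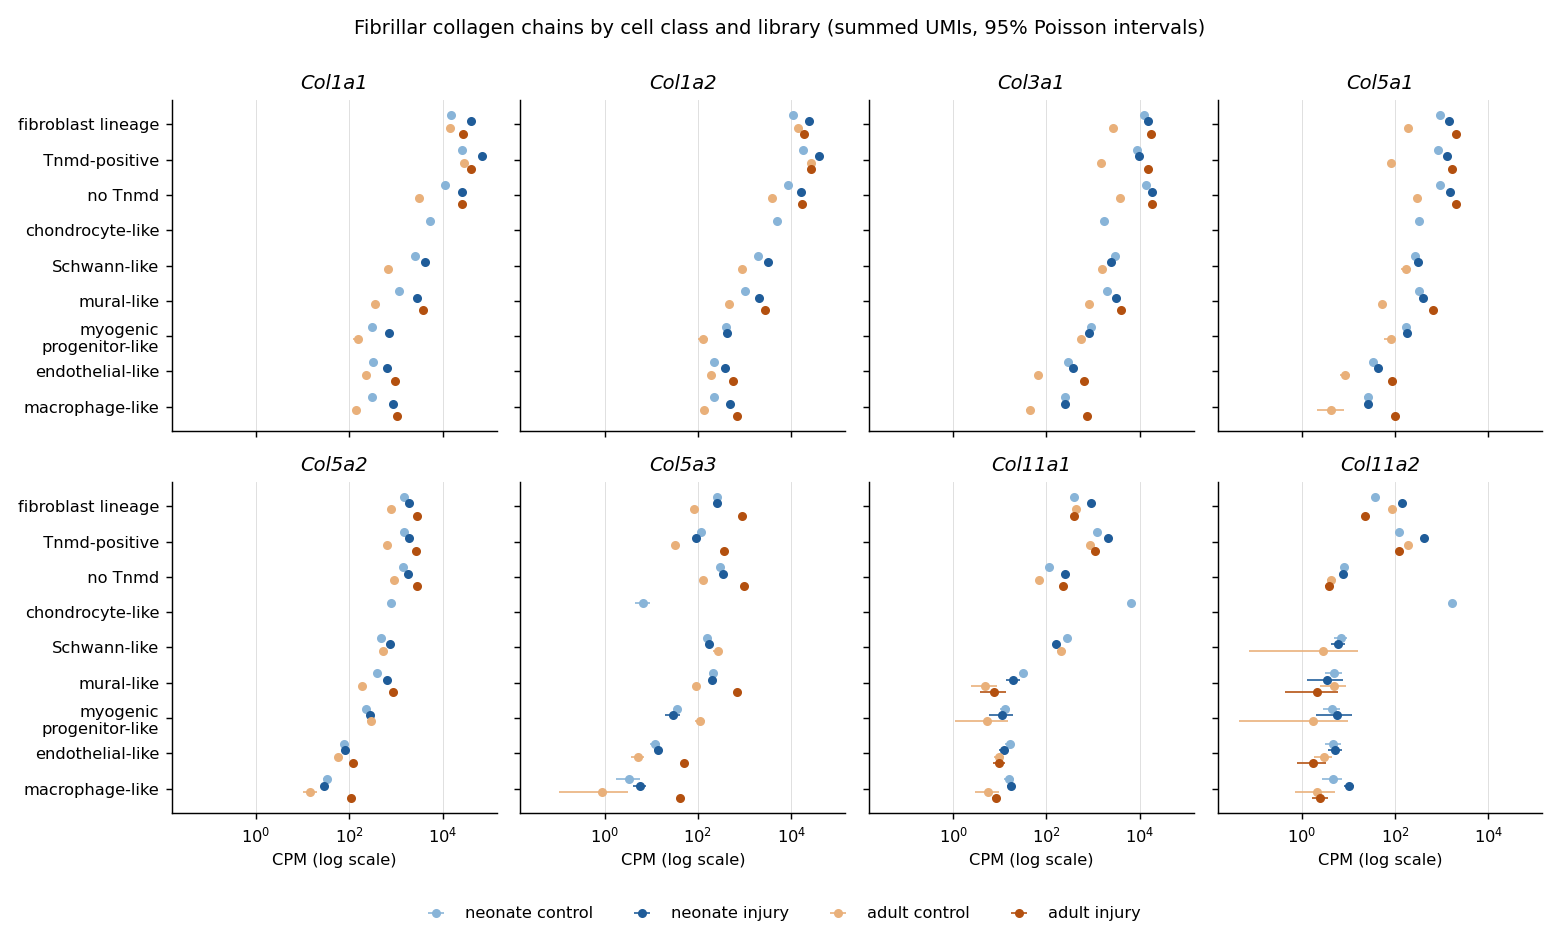
Level of each chain (CPM, log axis) in fibroblast-lineage cells, their Tnmd-positive and Tnmd-free cells, and 6 other classes, with 1 point per library and 95% Poisson intervals; classes with under 50 cells in a library are not drawn. Of the classes drawn, Col1a1, Col1a2 and Col3a1 are highest in lineage cells, Col11a1 and Col11a2 are highest in chondrocyte-like cells of the neonate control (6459 and 1623 CPM), and Col5a3 in mural-like cells lies close to its lineage level.

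In the 471 chondrocyte-like cells of the neonate control, Col11a1 reached 6459 CPM and Col11a2 1623 CPM, which were 370 and 393 times the immune level and far above the 384 and 36.3 CPM of lineage cells. The chondrocyte-like class held only 25 cells in the injured neonate, and none was gated in either adult library. Schwann-like cells, the glia of nerves, also held Col11a1. It stood there at 278, 162 and 209.56 CPM in the uninjured neonate, injured neonate and uninjured adult. In the neonate control, 70 myofibre-like cells held 157 UMIs of the 2 type XI chains among 419299. The 1494 unassigned cells held 24533 among 17710631. In mural-like cells of the neonate control Col11a1 was 1.77 times the immune level, at 30.7 against 17.3 CPM (log2 ratio 0.82 [0.44, 1.22]). In the other 3 libraries the interval of that ratio included 0, so the mural-like level was not separated from the immune level there. The mural-like level of Col5a3 was 214 CPM in the neonate control, 198 in the injured neonate, 89.2 in the adult control and 676 in the injured adult. These are 82.9%, 76.7%, 109% and 77.7% of the lineage level, and at least 16.8 times the immune level. Schwann-like cells held 160 CPM of Col5a3 in the neonate control and 175 in the injured neonate, 61.8% and 68.0% of the lineage level. In the adult control Col5a3 was higher still in 76 Schwann-like cells, at 267 CPM, and stood at 112 CPM in 65 myogenic progenitor-like cells. Those Schwann-like cells also held Col5a1 at 90.5%, Col5a2 at 69.15% and Col3a1 at 58.9% of the lineage level. In the neonate control and injured neonate, Schwann-like Col5a1 was at 29.15% and 21.9% of it. Chondrocyte-like cells held 6.59 CPM of Col5a3, whose interval of 4.53 to 9.25 overlaps the 1.79 to 5.75 of macrophage-like cells.

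Type I was compared first across the lineage, since it forms the bulk of the fibril. Col1a1 stood at 14922 CPM [14890, 14953] in the neonate control, 40540 [40486, 40595] in the injured neonate, 14520 [14484, 14555] in the adult control and 27926 [27876, 27975] in the injured adult. Its partner chain Col1a2 stood at 10960, 23867, 14024 and 18543 CPM. The controls differed by a log2 ratio of 0.04 in Col1a1, and both injured libraries were above their controls for both chains. Col1a1 was 2.72-fold higher after neonatal injury and 1.92-fold higher after adult injury, and Col1a2 2.18-fold and 1.32-fold. The controls lay further apart within Tnmd-free cells. In cells without Tnmd, Col1a1 stood at 11381, 25614, 3102 and 25480 CPM in the same order, 3.67-fold higher in the neonate than in the adult control. In Tnmd-positive cells it stood at 25690, 69315, 28481 and 39969 CPM. The adult control is therefore the library in which type I was most unevenly spread, with 9.18 times more Col1a1 in Tnmd-positive than in Tnmd-free cells, against 2.26, 2.71 and 1.57 times in the neonate control, injured neonate and injured adult. For Col1a2, the Tnmd-positive adult libraries stood at 26411 CPM without and 26122 CPM with injury, a log2 ratio of -0.02.

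Col3a1, the chain of type III, was low in the adult control and high in the other 3 libraries. It stood at 12418 CPM [12390, 12447] in the neonate control, 15216 [15183, 15250] in the injured neonate, 2670.5 [2655.5, 2685.6] in the adult control and 17579 [17539, 17618] in the injured adult. Among all genes of the lineage it ranked 3 in both neonatal libraries and in the injured adult, and 25 in the adult control. The adult control was lowest in both parts of the lineage, with 1507 CPM in Tnmd-positive and 3694 CPM in Tnmd-free cells. In the other libraries, Tnmd-positive cells held 8774 CPM in the neonate control, 9844 in the injured neonate and 14880 in the injured adult. Tnmd-free cells held 13734, 18146 and 18384 CPM. Col3a1 was thus higher without Tnmd in every library, the opposite of Col1a1.

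The type V chains followed Col3a1 more than Col1a1. Col5a1, present in every known form of type V, stood at 911 CPM [903, 918] in the neonate control, 1419.7 [1409.5, 1429.9] in the injured neonate, 190.3 [186, 194] in the adult control and 1972 [1959, 1986] in the injured adult. Col5a2, the usual second chain, stood at 1469, 1887, 780.4 and 2837 CPM. Col5a3, a chain of a rarer form, stood at 259, 258, 82.2 and 870.15 CPM. The adult control was the lowest library and the injured adult the highest for all 3 chains, and the 2 neonatal libraries differed little in Col5a3. The share of lineage cells with a Col5a3 UMI, after each cell was thinned to 2000 UMIs, was 33.9%, 31.7%, 12.8% and 63.9%, and 71.0%, 55.9%, 33.3% and 91.3% without thinning. In macrophage-like cells, which should lack it, the thinned shares were 1.22%, 1.08%, 0% (0 of 194 cells, which allows up to 1.55%) and 7.03%, at median depths of 11413.5, 4802, 11061 and 7355 UMIs. By part of the lineage, Col5a1 in the adult control stood at 82.5 CPM in Tnmd-positive cells against 288 in Tnmd-free cells, a wider gap than in the neonate control, with 824 and 937 CPM. Col5a2 differed less between these parts, at 1510.4 CPM with and 1442 without Tnmd in the neonate control, 1895 and 1841 in the injured neonate, 632 and 907 in the adult control and 2712.5 and 2864 in the injured adult. It was thus slightly higher with Tnmd in both neonatal libraries and lower in both adult ones. Col5a3 was higher in Tnmd-free than in Tnmd-positive cells of every library, with 304 against 117 CPM in the neonate control, 349 against 92.0 in the injured neonate, 128 against 31.6 in the adult control and 995 against 364 in the injured adult.

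The type XI chains were higher in Tnmd-positive than in Tnmd-free cells of every library. Col11a1 stood at 384 CPM [379, 389] in the lineage of the neonate control, 888 [880.33, 896] in the injured neonate, 424 [418, 430.36] in the adult control and 381 [376, 387] in the injured adult. Its partner Col11a2 stood at 36.3, 143, 87.8 and 22.6 CPM. The injured neonate was thus highest for both chains. The injured adult was lowest for Col11a2, while for Col11a1 its interval overlapped that of the neonate control. In Tnmd-positive cells Col11a1 stood at 1200.7, 2086, 848 and 1081 CPM, and in Tnmd-free cells at 113, 252, 69.3 and 222 CPM. Within each part of the lineage the injured adult was therefore above the adult control, while over the whole lineage it was slightly below. Tnmd-positive cells were 41.2% of the lineage in the adult control and 15.1% in the injured adult, and the part of this change in the lineage value was not tested. Col11a2 in Tnmd-free cells stood at 8.19, 7.74, 4.31 and 3.80 CPM, close to the immune levels of 4.03, 10.1, 1.85 and 2.58 CPM. It stood at 123, 423, 192 and 120.31 CPM in Tnmd-positive cells. Summed cartilage markers were at 127, 211, 46.5 and 131 CPM in the lineage, all 8 with a UMI except in the adult control with 7. In lineage cells with no UMI of these markers, the log2 ratio of Col11a1 was -0.67 between the controls, 0.77 after neonatal injury and -1.05 after adult injury, and that of Col11a2 was -2.10, 2.03 and -2.40.

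**Figure D2:**
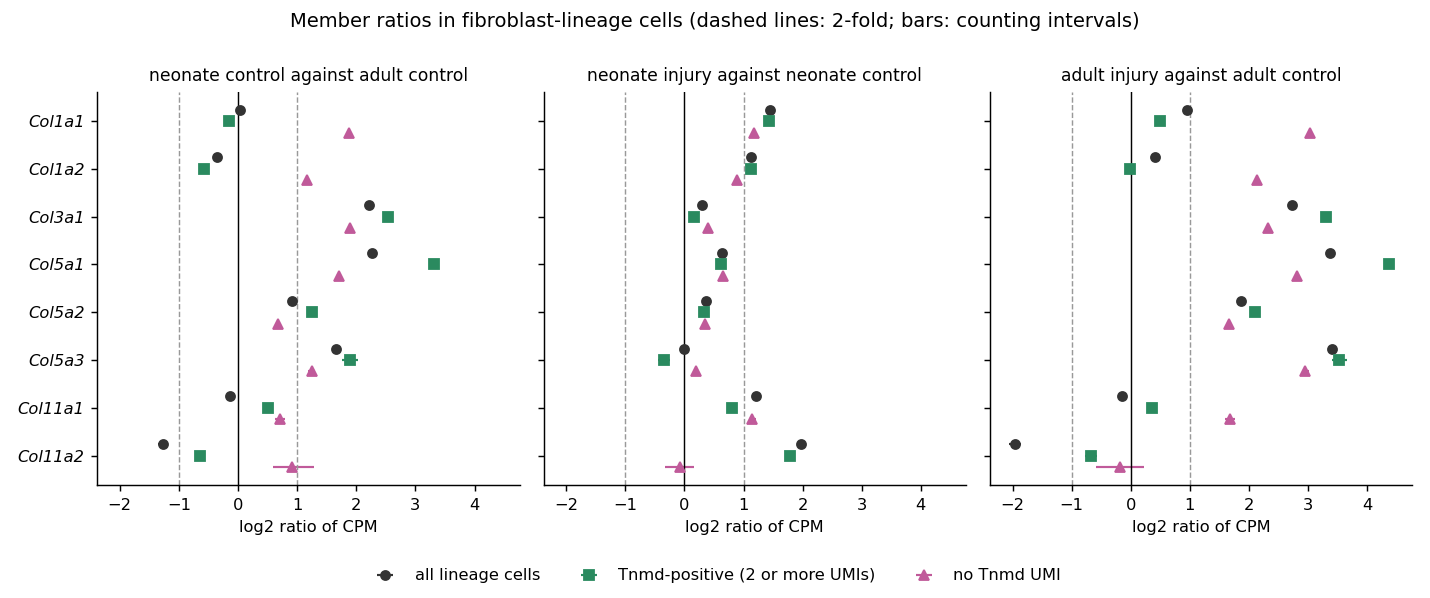
Log2 ratio of CPM of each chain in 3 comparisons, for all fibroblast-lineage cells, Tnmd-positive cells and Tnmd-free cells, with counting intervals and dashed lines at 2-fold. Type I chains differ between the parts of the lineage in both comparisons with the adult control (Col1a1 at 3.04 without Tnmd and 0.49 with Tnmd after adult injury), while Col3a1, Col5a1 and Col5a2 point the same way in each part. Col5a3 does so except after neonatal injury, where it is at -0.35 in Tnmd-positive and 0.20 in Tnmd-free cells.

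Uninjured neonate and adult were set against each other to ask how the chains differ with age. Col5a1, Col3a1 and Col5a3 were higher in the neonate, by 4.78-fold, 4.65-fold and 3.15-fold, and Col5a2 by 1.88-fold. In the neonate Col1a1 and Col11a1 stood at 1.03 and 0.906 times their adult level, and Col11a2 at 0.413 times. On the log2 scale the ratios were 2.26 [2.23, 2.29] for Col5a1, 2.22 [2.21, 2.23] for Col3a1, 1.66 [1.60, 1.71] for Col5a3 and -1.28 [-1.35, -1.20] for Col11a2. In lineage cells 3 of the 8 members were at least 2-fold higher, where 17.2% of the 16095 genes with at least 50 UMIs were, and 1 was at least 2-fold lower, where 12.2% were. The count of 1 is near the background and is not a result about the group. The median over the members was 0.48, against 0.11 for all genes. In cells of 5000 to 15000 UMIs the Col11a2 ratio was -0.83, which is less than 2-fold. Age and the sex-linked makeup of these 2 libraries, 87.4% Y-linked against 95.3% Xist, cannot be told apart. In Tnmd-positive cells 4 members were 2-fold higher and 0 lower, against 15.9% and 12.1% of genes, and Col5a1 reached 3.32 [3.25, 3.40]. In Tnmd-free cells 5 were higher and 0 lower, also against 15.9% and 12.1% of genes, since both type I chains then passed 2-fold (1.88 and 1.16) and Col5a2 did not (0.67).

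The neonatal injury library was set against the neonate control, the same library that served above as the younger control. Here type I and type XI were higher and type III and V differed less. Col11a2 was 3.93-fold higher, Col1a1 2.72-fold, Col11a1 2.31-fold and Col1a2 2.18-fold. Col5a1 was 1.56-fold, Col5a2 1.28-fold and Col3a1 1.23-fold higher, and Col5a3 had a log2 ratio of -0.005 [-0.039, 0.028]. In lineage cells 4 members were at least 2-fold higher and 0 lower, against 8.70% and 11.5% of 16376 genes, with a median of 0.88 against -0.05 for all genes. In Tnmd-positive cells 3 were higher and 0 lower, against 7.40% and 13.4% of genes, with Col11a1 at 0.80. In Tnmd-free cells 2 were higher and 0 lower, against 8.64% and 10.0% of genes: Col1a1 at 1.17 and Col11a1 at 1.15, with Col1a2 at 0.89. Over the whole lineage, injury and the sex-linked makeup of these libraries, 87.4% Y-linked against 76.5% Xist, cannot be told apart. Within cells that had Y-linked UMIs but lacked Xist, 4248 in the control and 1082 in the injured library, the log2 ratio of Col11a1 was 0.47 and no longer past 2-fold. There Col11a2 was at 2.17, Col1a1 at 1.61 and Col1a2 at 1.39, and Col3a1 at 0.74. With the 5746 injured cells that had Xist and no Y-linked UMIs, set against all 4860 control cells, which are mostly Y-linked, Col11a1 was at 1.32, Col11a2 at 1.87, Col1a1 at 1.36 and Col1a2 at 1.03.

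The adult injury library was set against the adult control, which also served as the older control above. Type III and type V were far higher after injury, by 10.6-fold for Col5a3, 10.4-fold for Col5a1, 6.58-fold for Col3a1 and 3.64-fold for Col5a2. Type I was 1.92-fold higher for Col1a1 and 1.32-fold for Col1a2. Col11a1 was at a log2 ratio of -0.15 [-0.18, -0.12] and Col11a2 at -1.96 [-2.06, -1.86]. In cells of 5000 to 15000 UMIs, 2086 in the control and 433 in the injured library, Col11a2 was at -0.16 and Col11a1 at 0.05. That window left out most of the 1847 injured lineage cells. With each cell thinned to 2000 UMIs instead, all 24 member ratios of the comparisons kept their sign. None of them moved by more than 0.491 on the log2 scale, so Col11a2 stayed clearly lower there. Why these results differ was not tested. In lineage cells 4 members were at least 2-fold higher and 1 lower, against 16.7% and 15.4% of 15495 genes; the count of 1 is again near the background. The median was 1.40, against 0.02 for all genes. In Tnmd-positive cells the same number, 4, were higher and 0 lower, against 14.5% and 11.1% of genes, with Col5a1 at 4.36 [4.29, 4.44] and Col1a2 at -0.02. In Tnmd-free cells 7 were higher and 0 lower, against 16.3% and 14.4% of genes, with Col1a1 at 3.04 [3.03, 3.05] and Col11a2, near the immune level in both libraries, at -0.18. Summed macrophage markers in lineage cells were at 94.1 CPM in the injured adult and 13.1 in its control, with all 8 markers detected in both. Subtracting the macrophage-like CPM of the same library moved no member's log2 ratio by more than 0.16 in any comparison.

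The chain ratios describe the makeup of what a class transcribes without a scaling to total UMIs. Since UMIs are counted near transcript ends and capture can differ between transcripts, a ratio is read between libraries and not as protein stoichiometry. Per 100 Col1a1 UMIs, lineage cells held 83.2 Col3a1 UMIs in the neonate control, 37.5 in the injured neonate, 18.4 in the adult control and 63.0 in the injured adult. Col5a1, Col5a2 and Col5a3 together came to 10.2, 5.54, 3.69 and 12.2 UMIs per 100 of Col1a1 and Col1a2. Both ratios were thus lower after neonatal injury and higher after adult injury, by log2 shifts of -1.15 and 1.78 for Col3a1 to Col1a1 and of -0.88 and 1.73 for type V to type I. The type XI chains came to 1.63, 1.60, 1.79 and 0.870 UMIs per 100 of type I, with shifts of -0.14 between the controls, -0.02 after neonatal injury and -1.05 after adult injury. These shifts depended on the cells taken. They were 0.68, -0.39 and -0.06 in Tnmd-positive cells, -0.80, 0.04 and -0.99 in Tnmd-free cells, and -0.99, -0.26 and -2.28 in cells without a cartilage marker UMI. Between the Y-linked cells of the neonatal libraries the shift was -0.80. Of the 3 ratios, 2 were shifted at least 2-fold with age, 1 with neonatal injury and 3 with adult injury.

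The direction after adult injury differed between parts of the lineage. In Tnmd-positive cells Col3a1 stood at 34.2, 14.2, 5.29 and 37.2 UMIs per 100 Col1a1 UMIs, so the injured adult was 7.04-fold above its control. In Tnmd-free cells the ratio was 121, 70.8, 119 and 72.2 per 100, so the injured adult was below its control, with a log2 shift of -0.72 [-0.74, -0.71], close to the -0.77 [-0.78, -0.76] of neonatal injury. The same held for type V to type I, at 1.36 and 7.22 per 100 in Tnmd-positive adult control and injured cells and at 19.0 and 13.9 in Tnmd-free ones. Without Tnmd, the 2 controls differed by a log2 shift of 0.02 in Col3a1 to Col1a1 and none of the 3 ratios was shifted 2-fold in any of the 3 comparisons. Type XI to type I fell just short after adult injury, at 1.05 per 100 in the control and 0.531 in the injured library. Among Tnmd-positive cells 2, 1 and 2 ratios were shifted 2-fold with age, neonatal injury and adult injury.

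**Figure D3:**
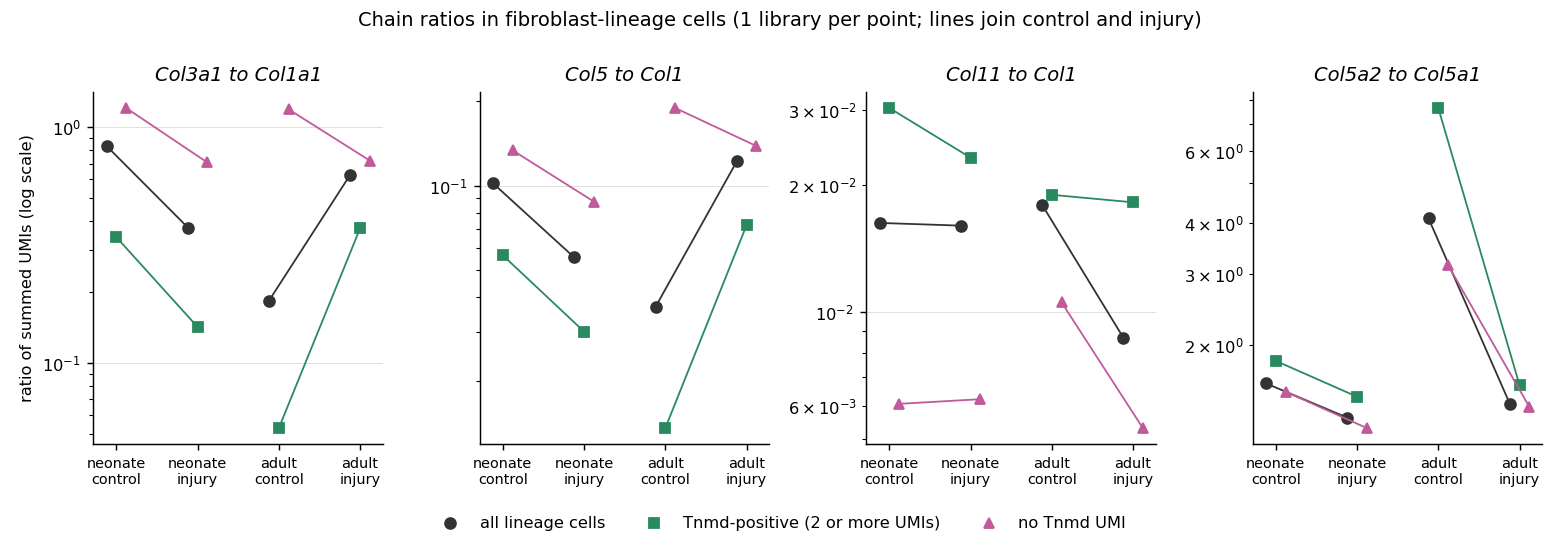
Ratios of summed UMIs (log axes) in each library for all fibroblast-lineage cells, Tnmd-positive cells and Tnmd-free cells, with lines joining control and injury at each age. After adult injury Col3a1 to Col1a1 is higher in Tnmd-positive cells (0.0529 to 0.372) and lower in Tnmd-free cells (1.19 to 0.722), and Col5a2 to Col5a1 is highest in the adult control in every part shown.

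The ratio of the 2 main type V chains set the adult control apart in each part of the lineage and in classes outside it. Col5a2 came to 161, 133, 410.0 and 144 UMIs per 100 Col5a1 UMIs in the 4 libraries, in the same order. In Tnmd-positive cells it came to 183, 149.6, 766 and 159.8, and in Tnmd-free cells to 154, 125, 315 and 141. The adult control was also highest among mural-like cells, at 344 against 123 to 161 per 100 in the other libraries. Among Schwann-like cells it stood at 312 in 76 adult control cells against 181 and 245 in the neonatal libraries. The ratio of the type I chains moved less: Col1a2 came to 73.5, 58.9, 96.6 and 66.4 per 100 Col1a1 UMIs in the lineage. Col11a1, which can take the place of a type V chain in mixed molecules, came to 42.2, 62.6, 223 and 19.3 per 100 Col5a1 UMIs, and to 146, 165, 1028 and 63.7 in Tnmd-positive cells.

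Within single lineage cells the Col3a1 share was spread most widely in the adult control. For each cell with at least 20 UMIs of Col1a1 and Col3a1, 20 of them were drawn and the share of Col3a1 taken. The median share was 50% in the neonate control, 35% in the injured neonate, 20% in the adult control and 40% in the injured adult, over 4835, 7500, 2998 and 1831 cells. The interquartile ranges were 35% to 60%, 15% to 50%, 5% to 55% and 27.5% to 50%. Cells with under 10% Col3a1 made up 3.83%, 12.8%, 36.5% and 3.88%, and cells above 50% made up 45.8%, 19.2%, 28.5% and 22.8%. The correlation between draws of 1 cell, which is 0 when all cells share 1 ratio, was 0.109, 0.144, 0.358 and 0.081. The adult control had the highest value, and 81.3% of its cells had enough UMIs to be used, against at least 99.1% elsewhere. Median shares were 25%, 10%, 5% and 25% in Tnmd-positive and 55%, 45%, 55% and 40% in Tnmd-free cells. For the 2 type I chains, measured the same way, that correlation was 0.013, 0.020, 0.058 and 0.013, so Col1a1 and Col1a2 stayed in a nearly fixed ratio from cell to cell.

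**Figure D4:**
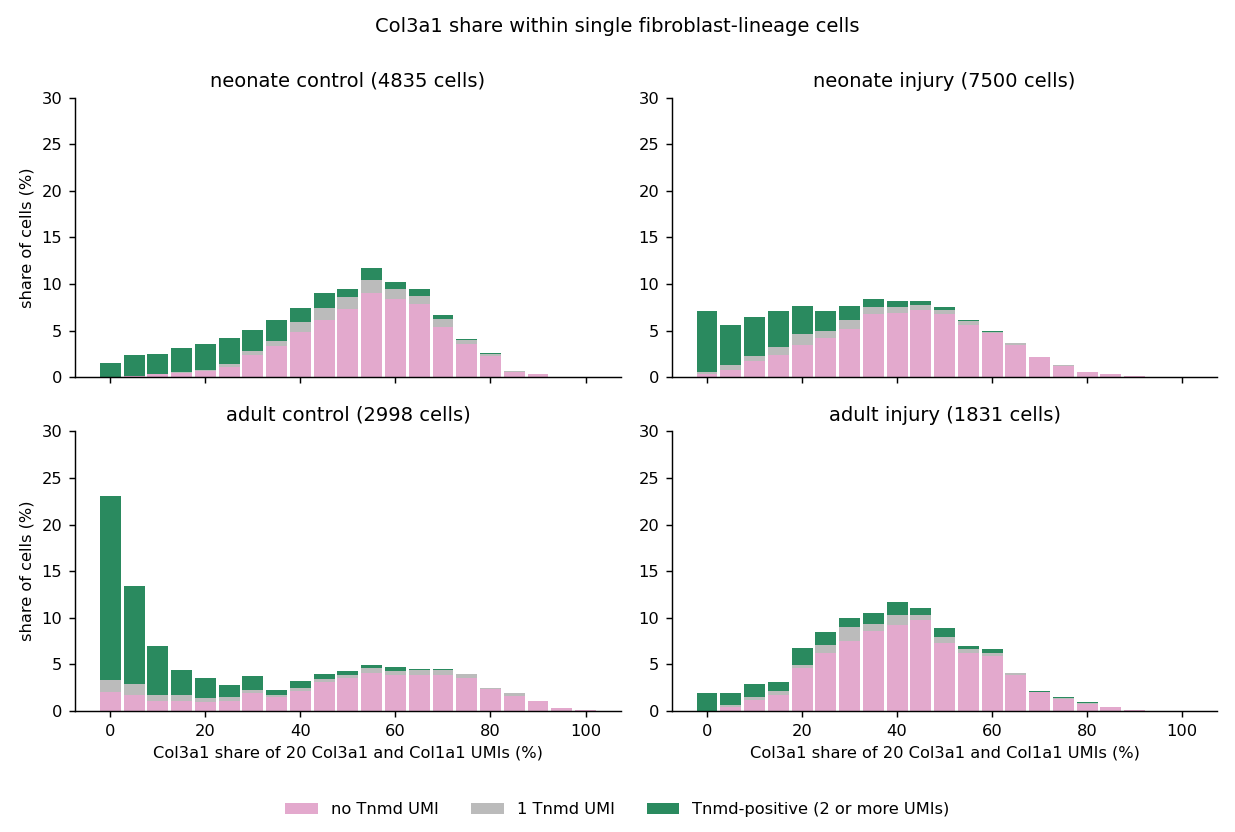
Share of Col3a1 among 20 Col3a1 and Col1a1 UMIs drawn from each fibroblast-lineage cell (x axis, percent), as the percentage of cells at each value, stacked by Tnmd UMIs, in the 4 libraries. The adult control has a peak at 0 to 10% made mostly of Tnmd-positive cells and a broad group from about 40% to 80%, while the injured adult has 1 group around 40%.

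Levels of single chains across lineage cells, each thinned to 2000 UMIs, described the same pattern. Spearman correlations between Col1a1 and Col1a2 were 0.84, 0.89, 0.86 and 0.80 in the 4 libraries. Between Col1a1 and Col3a1 they were 0.28, -0.05, 0.04 and 0.38, and between Col3a1 and Col5a1 0.32 to 0.36. Col11a1 went with Col1a1, at 0.46, 0.61, 0.51 and 0.31, and against Col3a1, at -0.30, -0.45, -0.31 and -0.31. These are descriptions over 1787 to 7251 cells of 1 library each, which share library and depth.

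Gates on other genes placed the low and high ratios. These gates overlap and are not cell types. Cells with both Angptl7, a secreted protein, and Chad, the matrix protein chondroadherin, numbered 9, 35, 2193 and 57 in the 4 libraries. The 2193 cells of the adult control held 7.79 Col3a1 UMIs per 100 of Col1a1 and the 57 of the injured adult 9.54, while Col1a1 stood at 21162 and 66047 CPM and Col3a1 at 1648 and 6300.2 CPM. Both chains were higher in the injured library, and their ratio differed far less than either level. Cells with Lrrc15 and Cthrc1, genes of activated fibroblasts, numbered 775, 1639, 18 and 1256. They held 109, 42.8 and 65.5 Col3a1 UMIs per 100 of Col1a1 in the neonate control, injured neonate and injured adult, and 206.7 in the 18 cells of the adult control. Cells with Pi16 and Dpp4, markers of adventitial fibroblasts, numbered 549, 552, 583 and 217 and held 149, 107, 72.9 and 102 per 100. In these Pi16 and Dpp4 cells Col11a1 stood at 39.8, 57.6, 74.99 and 119 CPM, and Col3a1 ranked 1 among all genes in all libraries but the adult control, where it ranked 11.

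Among mural-like cells the injured adult was again the highest library for Col3a1 and Col5a1. In mural-like cells Col3a1 stood at 1973, 3135, 806 and 3932 CPM, Col5a1 at 322, 389, 53.3 and 649.92 CPM and Col1a1 at 1147, 2793, 362 and 3712 CPM. Col3a1 was 172, 112, 222 and 106 per 100 Col1a1 UMIs in them, so both injured libraries lay below their controls, as in Tnmd-free lineage cells. These levels were 2.39 to 3.58 times the immune level for Col1a1 and 5.32 to 15.4 times for Col3a1, so free RNA can be a sizeable part of the Col1a1 value. Myogenic progenitor-like cells held Col1a1 at 0.857 to 1.02 times the immune level, but Col3a1 at 3.57, 3.18 and 10.6 times and Col5a1 at 7.04, 6.57 and 19.0 times in the uninjured neonate, injured neonate and uninjured adult. The other type I chain, Col1a2, was at 1.81 times the immune level in the neonate control (398 against 219 CPM) and at 0.858 and 0.898 times in the injured neonate and adult control. Endothelial-like cells held Col1a1 and Col3a1 at 0.757 to 1.48 times the immune level, and Col5a2 at 2.18, 2.75, 3.54 and 1.15 times.

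The other genes of fibril formation were read from 5 lists with 32 genes, all with at least 50 UMIs in the lineage. With age, 10 were at least 2-fold higher in the neonate and 8 lower. The other fibrillar collagens were higher, 3 of 3, led by Col2a1, the cartilage collagen, at 140.45 against 9.77 CPM (log2 ratio 3.84). The neonate control held 471 chondrocyte-like cells, and none was gated in the adult control. The part of cartilage cells or their free RNA in the Col2a1 value was not tested. P4ha3, a prolyl hydroxylase subunit, was at 134 against 27.9 CPM (2.26), 1 of 4 higher among 11 folding and modification genes, with 0 lower. Pcolce2, an enhancer of propeptide removal, was lower in the neonate at 64.8 against 1038 CPM (-4.00), as was Fmod, a proteoglycan on fibrils and a marker of the gate, at 188 against 2769 CPM (-3.88). Among 7 propeptide genes 1 was higher and 3 lower, among 5 cross-linking genes 1 and 3, and among 6 small proteoglycans 1 and 2.

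With neonatal injury 4 of the 32 were higher and 1 lower, in the propeptide list 2 and 0, among proteoglycans 2 and 0, and among cross-linking enzymes 0 and 1. Fmod was at 829 against 188 CPM (2.14) and Tll1, a propeptide protease, at 40.2 against 12.7 CPM (1.67). The cross-linking enzyme gene Loxl4 was at 1.05 against 2.22 CPM (-1.08). With adult injury 17 were higher and 5 lower. The folding and modification genes were mostly higher, 8 of 11 with 0 lower, as were 2 of 3 other fibrillar collagens, led by Col27a1 at 255 against 20.1 CPM (3.67). Of the propeptide genes 3 were higher and 1 lower. Adamts14, a procollagen protease, was at 36.6 against 3.18 CPM (3.52), while Pcolce2 was at 57.4 against 1038 CPM (-4.18). Cross-linking genes were 2 higher and 1 lower, and proteoglycans 2 higher and 3 lower, with Fmod at 387 against 2769 CPM (-2.84). The shares of all genes past 2-fold are those given for the members.

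The genes most like each member were ranked by Pearson's r of log2(CPM + 10) over 31 sums of a class in a library, from 13 classes, among 9447 genes. The sums share libraries, and lineage and other classes differ in depth, so r is a description. Col1a1 and Col1a2 were closest to each other (r = 0.987), followed for both by Thbs2 (0.959 and 0.961) and Mmp2 (0.939 and 0.940). Postn (0.919) and Cdh11 (0.899) came next for Col1a1, and Ugdh (0.926) and Tnfaip6 (0.915) for Col1a2. Col3a1 was closest to Col5a1 (0.967), then to Tnfaip6 (0.947), Col5a2 (0.939), Postn (0.924) and Col12a1 (0.924), and its r with Col1a1 was 0.898. Col5a1 was closest to Col3a1, then to Col5a2 (0.945), Col6a1 (0.918), Chpf (0.918) and Col12a1 (0.913). Col5a2 was closest to Col5a1, Col12a1 (0.944), Col6a1 (0.941), Antxr1 (0.940) and Col3a1. Col5a3 had lower values throughout, with Col3a1 (0.859), Col5a2 (0.856), Adamts12 (0.851), Cdh2 (0.848) and Col5a1 (0.847). Neither type XI chain had a member among its nearest 5. Col11a1 was closest to Mmp16 (0.930), Armh4 (0.923), Col16a1 (0.921), Ecrg4 (0.890) and Pdzrn4 (0.881). Col11a2 was closest to Fbln7 (0.956), Ooep (0.95), Cgref1 (0.938), Wif1 (0.922) and Kazald1 (0.920). The only chondrocyte-like sum, from the neonate control, held 1623 CPM of Col11a2, far above every lineage sum. In the Schwann-like, mural-like, endothelial-like and myogenic progenitor-like sums Col11a2 lay below the 10 CPM added. How far its r values rest on the chondrocyte-like sum was not tested. The 2 type XI chains had an r of 0.845 with each other, and Col11a2 and Col5a3 an r of 0.057.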

How the data were processed

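Single-cell RNA from 4 mouse Achilles tendon libraries was analysed, 1 per group. The values are raw counts of UMIs per gene and barcode as deposited; the matrices were written by Cell Ranger 8.0.1, per the file headers, and the genome build was GRCm39, per the submitters' processing notes. Other settings are not given in the sources used here. The files held 10887, 16327, 6563 and 5003 barcodes in the neonate control, injured neonate, adult control and injured adult.

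Barcodes were dropped below 500 genes or 1000 UMIs, or above a mitochondrial share of 15%. Doublets were marked with Scrublet in scanpy 1.11.5 at 0.8% per 1000 barcodes, which removed 908, 1944, 321 and 185. Classes came from 14 lists of 8 markers without collagen genes. Clusters made without collagen genes and named as fibroblast lineage held 98.07% to 99.84% of the gated lineage cells. Gated cells made up 84.84% (injured adult) to 95.29% (adult control) of the cells in those clusters. UMIs were summed per class and library and divided by all UMIs of that class (CPM); 0.5 was added to each count in log2 ratios. Intervals for CPM are exact Poisson and those for single ratios and shares exact Clopper-Pearson, at 95%. Those for shifts of chain ratios between libraries are normal approximations on the log scale, also at 95%. With 1 library per group no test was run, and 2-fold with at least 50 UMIs over both libraries stands in for a call. The functions were tested on simulated data.

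The genes named are the 8 members, the 5 nearest genes of each by correlation among genes reaching 50 CPM in a sum, and among 32 fibril-formation genes the 2 highest and 2 lowest past 2-fold in each comparison. Members and lists were chosen with earlier results of these data known. The immune background, the minimum UMIs per cell for chain pairs, the thinning depth, the additional chain pairs and 3 of the 20 alternatives were chosen after the files were seen. Scripts used Python 3.11.15, numpy 2.4.6, scipy 1.17.1, pandas 2.3.3 and matplotlib 3.10.9.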

Additional observations from a re-analysis of the deposited data

Results flagged for a closer look

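In 4 results the injured library was above its control at one age and below it at the other over the whole fibroblast lineage. The difference between the ages was not tested, since each group is 1 library, and the share of Tnmd-positive cells differs between the libraries. Median depth of lineage cells was 11081 and 11468 UMIs in the neonate and adult control and 6367 and 20878 UMIs in the injured neonate and adult. For Col11a1 the log2 ratio of injury to control was 1.36 higher in the neonate than in the adult. In the adult its sign turned with the cells taken. It was above 0 at both ages within Tnmd-positive cells (0.80 and 0.35) and within Tnmd-free cells (1.15 and 1.68). For Col11a2 the neonatal ratio was 3.93 higher, with 1.79 and -0.67 in Tnmd-positive cells and, near the immune level, -0.08 and -0.18 in Tnmd-free cells. In cells of 5000 to 15000 UMIs the Col11a2 ratios were 1.77 and -0.16. With each cell thinned to 2000 UMIs no member ratio moved by more than 0.491. For Col3a1 to Col1a1 the neonatal minus the adult shift was -2.92. In Tnmd-positive cells the shifts were -1.27 and 2.82, and in Tnmd-free cells both were below 0, at -0.77 and -0.72. For type V to type I the neonatal minus the adult shift was -2.61, with -0.91 and 2.41 in Tnmd-positive cells and -0.61 and -0.45 in Tnmd-free cells.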

How the results depend on the processing

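No paired analysis was possible because each group is 1 library, and for the same reason no library could be left out. Over the alternatives, the log2 ratio of Col3a1 ran from 1.90 to 2.54 between the controls and from 2.32 to 3.30 after adult injury, and that of Col5a1 from 1.70 to 3.32 and from 2.81 to 4.36. In Tnmd-free cells 6 of the 24 member ratios turned sign: between the controls Col11a2 to 0.92, Col1a2 to 1.16 and Col11a1 to 0.71, after neonatal injury Col11a2 to -0.081 and Col5a3 to 0.20, and after adult injury Col11a1 to 1.68. Of the 9 chain ratio shifts 4 turned there: type V to type I, to -0.50 between the controls and -0.45 after adult injury, Col3a1 to Col1a1, to -0.72 after adult injury, and type XI to type I, to 0.04 after neonatal injury. In Tnmd-positive cells 4 member ratios turned: Col1a1 to -0.15 and Col11a1 to 0.50 between the controls, and Col1a2 to -0.02 and Col11a1 to 0.35 after adult injury. In cells of 5000 to 15000 UMIs 4 turned: Col1a2 to 0.12 and Col11a1 to 0.12 between the controls, Col5a3 to 0.10 after neonatal injury and Col11a1 to 0.05 after adult injury. At that depth Col11a2 was at -0.16 after adult injury, the largest move there, at 1.80 on the log2 scale. With each cell thinned to 2000 UMIs all 24 member ratios kept their sign, and the largest move was 0.491. The number of members 2-fold lower between the controls was 0 with a looser gate, in Tnmd-positive cells, in Tnmd-free cells and in cells of 5000 to 15000 UMIs. After adult injury it was 0 in the last 3 of these and 2 in cells without a cartilage marker UMI. The number 2-fold higher in Tnmd-free cells was 5 between the controls, 2 after neonatal injury and 7 after adult injury, and in cells without a cartilage marker UMI it was 2 after neonatal injury. The number of chain ratios shifted 2-fold was 0 in Tnmd-free cells in each comparison, and 0 after neonatal injury in cells without a cartilage marker UMI. In Tnmd-free cells type XI to type I fell just short of 2-fold after adult injury. The cause of these moves was not tested. In Tnmd-free cells the level of Col11a2 was close to that of immune cells.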
